A study of Rattus norvegicus with 18 samples.

Results

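Collagens are structural proteins of the extracellular matrix, and their genes were followed here in the basolateral amygdala (BLA) of adult male Sprague-Dawley rats. The genes were chosen by name and level. They were the protein-coding genes whose symbol gives a collagen type and a chain (Col, a type number, the letter a and a chain number) and whose mean normalized value over 18 RNA-seq libraries was above 1. This held for 42 of 43 collagen genes, in a table of 19113 genes of which 18172 had a mean above 1. By the known structure of their products, 11 were fibrillar, 6 were the type IV chains of basement membranes and 25 belonged to other classes. Col1a2, a chain of type I collagen, lay just inside the limit with a mean of 1.00, and the transmembrane collagen Col23a1 lay just outside with a mean of 0.43. Of the 42 genes, 35 were above 0 in every library and 37 had a mean of at least 10. Col6a3 and Col21a1 were not analysed here.

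A collagen molecule is a helix of 3 chains wound together, which may be the product of 1 gene or of several. Fibrillar collagens pack into cross-banded fibrils, whereas type IV collagen forms the sheet-like network of basement membranes, which in the brain ensheathes blood vessels and underlies the pial surface. The other classes include collagens that decorate fibrils (the FACIT group), beaded filaments (type VI), short-chain networks, anchoring fibrils, collagens that span the cell membrane, and multiplexins, which carry glycan chains in basement membrane zones. In brain, many of these genes are expressed by cells of the vessel wall and by fibroblasts of the meninges and perivascular spaces, and some, such as Col19a1 and Col25a1, by neurons.

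Each of 3 housing groups had 6 rats, with 1 library per rat. Rats of the enrichment removal group (ER) first lived in enrichment for several weeks and were then kept alone, without toys or company, until they were killed. Rats of the environmental enrichment group (EE) spent the active part of the day in company in a large cage of several levels whose toys were changed regularly. Rats of the standard housing group (SH) lived singly throughout, and the groups shared strain and sex. Enriched rats lived together in a cage, and the tests take rats, not cages, as units. ERvSH covered the whole experience of enrichment and its removal, EEvSH enrichment alone, and ERvEE removal alone. The values were gene read counts scaled by library size factors. They were not corrected for gene length, so levels were compared between rats and not between genes.

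The libraries held 17753797 to 23450276 reads counted in genes. All 8 markers of excitatory neurons on a list of such genes were expressed, and their summed value was 93211 to 107236 in ER, 84152 to 113730 in EE and 86073 to 103250 in SH, while that of 7 choroid plexus markers was 36.5 to 151 over the 18 rats. SH 1 and SH 3 stood apart from the other libraries. On the first principal component of all genes tested, which held 20.4% of the variance, SH 3 lay at -137 and SH 1 at -45.1, and the other 16 libraries lay between -0.22 and 21.7. Correlated with each other library in turn, SH 3 had a median r of 0.944 and SH 1 of 0.962, and the rest had at least 0.970. These 2 libraries bear on nearly every collagen comparison with SH, which is therefore given with and without them.

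The sequences upstream of several collagen genes were taken from RefSeq (assembly GRCr8), where a promoter was found for 33 of the 42 genes. Type IV genes lie in head-to-head pairs in the genome, as is known in mammals, and the starts of Col4a1 and Col4a2 were separated by only 76 bases. This interval is shown because both genes are read outwards from it and because their values are compared below. For contrast, the windows of 250 bases upstream of Col11a1 and Col11a2, the type XI genes, are shown: they lie on different chromosomes and share no start region. Capitals mark matches on either strand to GGGCGG, the core of the Sp1 site (CCGCCC where it lies on the other strand), and to CCAAT, which reads ATTGG on the other strand, and TATAAA was also searched. The sequences read 5′ to 3′.
Col4a1-Col4a2 interval (chr16:84885521-84885596, plus strand, toward Col4a1): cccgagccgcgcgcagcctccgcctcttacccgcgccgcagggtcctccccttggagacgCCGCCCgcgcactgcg
Col11a1 upstream (chr2:204508886-204509135, plus strand): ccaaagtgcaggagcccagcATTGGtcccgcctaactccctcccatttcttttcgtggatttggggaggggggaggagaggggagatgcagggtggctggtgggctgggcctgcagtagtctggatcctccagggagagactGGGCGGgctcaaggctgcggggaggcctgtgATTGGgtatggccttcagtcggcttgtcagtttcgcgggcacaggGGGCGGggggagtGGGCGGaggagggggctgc
Col11a2 upstream (chr20:4817649-4817898, minus strand): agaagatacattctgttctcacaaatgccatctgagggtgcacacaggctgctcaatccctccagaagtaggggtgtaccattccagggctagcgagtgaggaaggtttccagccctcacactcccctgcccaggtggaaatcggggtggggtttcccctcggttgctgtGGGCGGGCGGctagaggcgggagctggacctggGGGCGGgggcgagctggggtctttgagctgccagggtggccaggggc
The interval of 76 bases held 1 GGGCGG on the minus strand, a motif found in 18.1% of the last 76 bases of 33469 RefSeq promoter windows. It held neither CCAAT nor TATAAA. The Col11a1 window held GGGCGG at 3 positions and CCAAT at 2, and the Col11a2 window held GGGCGG at 3 positions, of which 2 overlap. Over the 250 bases upstream, 18 of 33 collagen genes had GGGCGG, 11 had CCAAT and 4 had TATAAA. Among all 33469 promoter windows the shares were 30.5%, 34.0% and 12.9%. By class, GGGCGG was found upstream of 5 of 6 type IV genes, 6 of 8 fibrillar genes and 7 of 19 others. The Col4a1 and Col4a2 windows share the interval, so its GGGCGG lies in both, and the Col4a3 and Col4a4 windows also overlap. The shares were not matched on the G and C content of the windows. These matches describe letters in a window and not bound sites.

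No collagen gene differed between housing groups at an adjusted p under 0.05, and the direction of the collagens relative to SH turned on SH 1 and SH 3. With all 18 libraries, the mean on the log2 scale was higher than in SH for 25 of 42 collagens in ER and for 29 in EE. Of all genes tested, 51.8% were higher in ER and 53.7% in EE. By group medians, however, 19 collagens were higher in ER and 18 in EE. Without SH 1 and SH 3 the log2 mean was lower than in SH for 30 collagens in ER and 28 in EE (49.9% and 50.4% of all genes tested). The smallest p values then belonged in ERvSH to the type IV chain Col4a5, the anchoring-fibril collagen Col7a1, the fibril-associated Col14a1 and the transmembrane Col13a1. Since RNA came from whole tissue punches, fewer cells of a type and less RNA per cell cannot be told apart.

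SH 1 and SH 3 had the 2 lowest summed collagen values of all 18 rats, 10858 and 9305, against 14650 to 19006 in the other 4 SH rats. ER rats lay at 13574 to 15998 and EE rats at 14199 to 17715. On the log2 scale, SH 3 differed from the mean of the other 4 SH rats by a median of -0.88 over the 42 collagens and was below it in 37. Over all 18172 genes tested its median was -0.08, and 53.9% of them were below. SH 1 differed by a median of -0.40 and was below in 33 of 42, against -0.03 over all genes, of which 52.5% were below. SH 3 was the lowest of the 18 libraries for 20 collagens and SH 1 for 9. Among all genes tested, SH 3 was the lowest for 31.7% and SH 1 for 14.5%. Leaving these libraries out therefore raises the SH level of most collagens by construction.

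**Figure D1:**
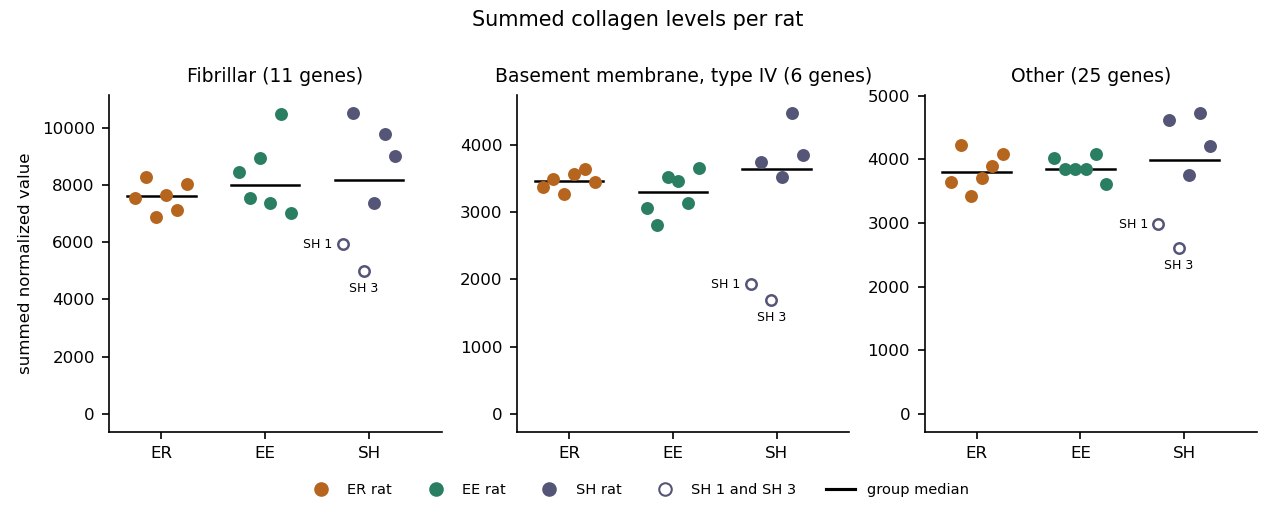
Summed normalized values of the fibrillar, type IV and other collagen genes (vertical axes, from near 0) in each rat, with a point per rat, a black line at the group median and open points for SH 1 and SH 3. SH 1 (1929) and SH 3 (1689) lie below all other rats for type IV collagens, as they do for both other classes.

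The 2 libraries were low in all 3 classes. For the 6 type IV genes the summed value was 3269 to 3643 in ER and 2812 to 3649 in EE, against 1929 in SH 1, 1689 in SH 3 and 3525 to 4476 in the other SH rats. For the 11 fibrillar genes it was 6884 to 8271 in ER and 7041 to 10497 in EE, against 5949 in SH 1, 5005 in SH 3 and 7363 to 10530 in the other SH rats. For the 25 other genes it was 3421 to 4229 in ER and 3618 to 4078 in EE, against 2981 in SH 1, 2610 in SH 3 and 3762 to 4734 in the other SH rats. In each class the ER and EE ranges thus lay between the 2 low SH libraries and the upper SH rats, and overlapped the range of the other 4 SH rats.

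Markers of the cells that make collagen were not all low in these libraries. The summed value of 15 markers of meningeal and perivascular fibroblasts was 5158 in SH 1 and 4492 in SH 3, within the 4361 to 5705 of the other SH rats. For 10 endothelial markers it was 5863 and 5338 in SH 1 and SH 3, against 5287 to 6681. Pericyte markers (10 genes) were lower, at 3074 and 3268, against 3856 to 4517 in the other SH rats. Smooth muscle markers (8 genes) stood at 1012 in SH 1 and 1769 in SH 3, against 2255 to 2440. Choroid plexus markers (7 genes) had 54.2 and 59.1, against 80.1 to 104 in the other SH rats. None of these lists had a marker at 0 in all libraries, and their part in the collagen values was not tested. Between groups, the summed smooth muscle markers were 1472 to 2975 in ER and 1275 to 2613 in EE, against 1012 to 2440 in SH. Their median log2 fold change was -0.24 in EEvSH and 0.07 in ERvSH with 18 libraries, and -0.44 and -0.17 without SH 1 and SH 3. In that setting 7 of 8 were negative in EEvSH, 4 of them at an unadjusted p under 0.05 (4.52% of all genes), and 8 of 8 in ERvSH, 2 of them at that level (3.79%), and 0 passed an adjusted p under 0.05. Of 10 endothelial markers, 9 were negative and 1 positive in ERvEE, and 3 were lower at an unadjusted p under 0.05 (2.28% of all genes). Without SH 1 and SH 3, 4 were lower at that level (4.07%). Of 15 fibroblast markers, 12 were negative and 3 positive in ERvSH, and 2 were lower at that level (3.32%). Without these libraries 13 were negative and 1 was lower at that level (3.79%). Pericyte markers had 0 at that level with 18 libraries.

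In EEvSH, limma called 0 of 42 collagens at an adjusted p under 0.05, as it did for 0% of all 18172 genes, and the smallest adjusted p of a collagen was 0.749. At an unadjusted p under 0.05 there were 4 of 42, against a background of 5.87% of all genes. Col4a4 and Col5a3 were higher in EE (3.35% of all genes were), and Col6a4 and Col15a1 were lower (2.53%). In ERvSH it called 0 of 42 as well (0% of all genes, smallest adjusted p 0.567), with 2 of 42 at an unadjusted p under 0.05, against 7.89% of all genes. Col4a4 was higher in ER (4.57% of all genes were) and Col15a1 lower (3.32%). In ERvEE it called 0 of 42 (0% of all genes, smallest adjusted p 1.00), and no collagen had an unadjusted p under 0.05, against 3.66% of all genes (1.38% higher and 2.28% lower). On recovered reads, edgeR and DESeq2 gave 0 adjusted calls among the collagens in each contrast. At an unadjusted p under 0.05 both tools had 3 collagens for EEvSH, 2 for ERvSH and 0 for ERvEE. The shares over all genes were 5.9%, 7.73% and 3.66% with edgeR, and 6.34%, 8.34% and 4.05% with DESeq2. A limma-voom fit weighted by library quality, which gives less weight to libraries that stand apart, also gave 0 adjusted calls among the collagens. Its unadjusted ones were 9 in EEvSH (8 lower), 11 in ERvSH (11 lower) and 2 in ERvEE (2 lower), against 8.61%, 7.63% and 10.3% of all genes.

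Without SH 1 and SH 3, limma still called 0 of 42 collagens and 0% of all genes in each contrast, with smallest adjusted p values for a collagen of 0.410 (EEvSH), 0.472 (ERvSH) and 0.629 (ERvEE). The unadjusted counts then held only lower genes. In EEvSH 8 of 42 had an unadjusted p under 0.05, all lower in EE (4.52% of all genes were lower and 3.84% higher at that level). In ERvSH there were 13 of 42, all lower in ER (3.79% of all genes were lower and 2.66% higher). In ERvEE there were 3 (Col4a5, Col7a1 and Col9a2), all lower in ER (4.07% lower and 3.76% higher). The ERvEE fold changes are the same in both settings, and only the shared error differs. EdgeR without these libraries, a choice made after the data were seen, gave 0 adjusted calls. At an unadjusted p under 0.05 it had 9 collagens in EEvSH, all lower (8.22% of all genes in either direction), 11 in ERvSH, all lower (6.34%), and 4 lower and 1 higher in ERvEE (7.91%).

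**Figure D2:**
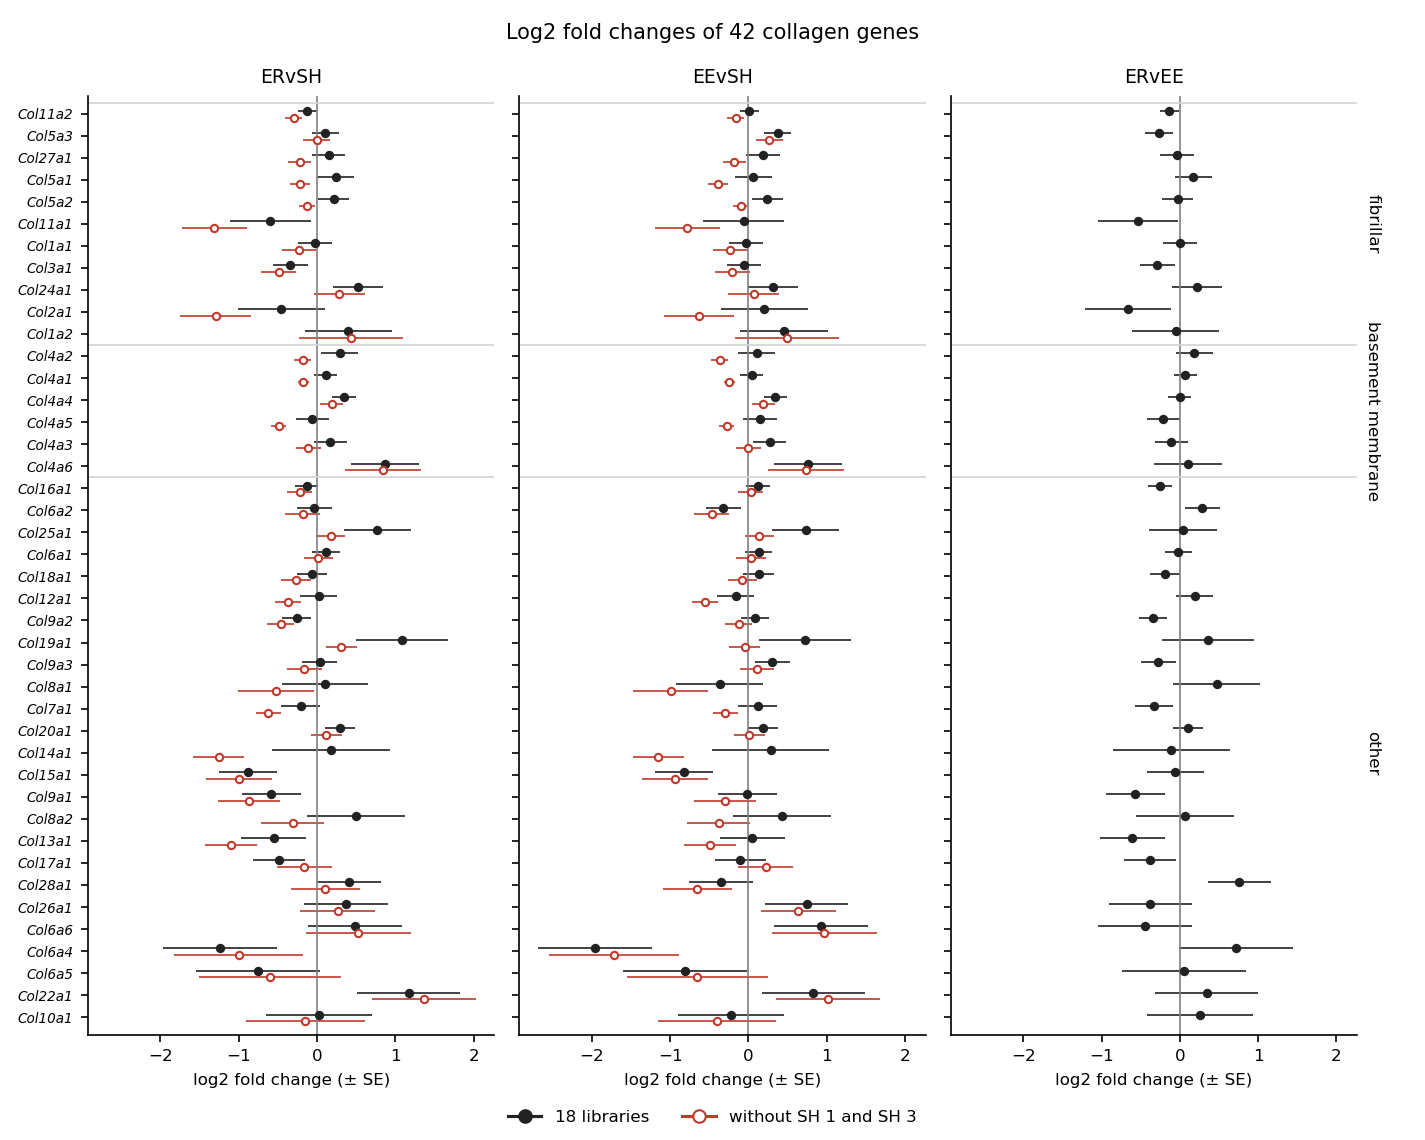
Log2 fold change with its standard error (horizontal axes) of each of the 42 collagen genes (rows, grouped by class and ordered by mean value) in ERvSH, EEvSH and ERvEE. Black points use 18 libraries and open red points, drawn for ERvSH and EEvSH only, leave out SH 1 and SH 3. The fold changes of ERvEE do not depend on these libraries, but their standard errors do. In ERvSH 25 black points are positive and 17 negative, against 12 positive and 30 negative red ones. Of all genes tested, 51.8% and 50.0% were positive in these settings.

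In EEvSH the median log2 fold change was 0.19 for fibrillar, 0.21 for type IV and 0.12 for other collagens with 18 libraries, and -0.18, -0.12 and -0.29 without SH 1 and SH 3. Over all 42 collagens, 29 were positive and 13 negative (median 0.12) with 18 libraries, and 14 positive and 28 negative (median -0.19) without these libraries. Of all genes tested, 53.7% and 49.6% were positive in these settings. In ERvSH the medians were 0.11, 0.23 and 0.02 with 18 libraries, and -0.22, -0.14 and -0.22 without them. Over all genes tested the medians lay between -0.0016 and 0.018 in both contrasts and settings. In ERvEE, where SH rats enter only through the shared error, the medians were -0.05 for fibrillar, 0.03 for type IV and -0.02 for other collagens. There 18 collagens were positive and 24 negative, and 50.9% of all genes tested were positive. EEvSH and ERvSH share the SH rats, so their like direction is not a second observation. The sign of the medians with 18 libraries also depended on the fit. In EEvSH the fibrillar median was -0.0041 with edgeR, -0.0014 with DESeq2 and -0.16 with limma-voom, and that of other collagens was -0.026, -0.028 and -0.099. In ERvSH other collagens had -0.050, -0.051 and -0.21 in these fits, and fibrillar collagens had -0.19 with limma-voom. Relative to SH, the negative medians of all 3 classes without SH 1 and SH 3 were found with limma and with edgeR.

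Col4a1 and Col4a2 encode the chains of the common vascular basement membrane network. The value of Col4a1 (lowest, median and highest of 6 rats) was 942, 996 and 1081 in ER, 882, 951 and 1075 in EE and 624, 1068 and 1252 in SH. SH 1 (624) and SH 3 (627) lay far below every other rat, while the other 4 SH rats (1062 to 1252) lay above all but the highest ER and EE rats. Its log2 fold change in EEvSH was 0.04 (SE 0.144, adjusted p = 0.941) with 18 libraries and -0.24 (SE 0.067, adjusted p = 0.410) without SH 1 and SH 3.

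For Col4a2 the 2 libraries were low as well, but the other SH rats overlapped ER and EE more. Its values were 1603, 1703 and 1952 in ER, 1209, 1556 and 1956 in EE and 647, 1757 and 2304 in SH (lowest, median, highest). SH 3 (647) and SH 1 (835) were the lowest of the 18 rats and SH 5 and SH 6 the highest, while SH 4 (1701) lay below 3 ER rats and 1 EE rat. In EEvSH its log2 fold change was 0.10 (SE 0.239) with 18 libraries and -0.37 (SE 0.111, adjusted p = 0.414) without SH 1 and SH 3.

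Col4a5, an X-linked chain that joins Col4a3 and Col4a4 in the network of the kidney glomerulus, had the smallest p of the collagens in ERvSH once these libraries were set aside. Its values were 220, 242 and 254 in ER, 236, 288 and 312 in EE and 132, 316 and 365 in SH. SH 1 (132) and SH 3 (143) were lowest, and the other 4 SH rats, at 316, 316, 349 and 365, were above every ER and EE rat. Of all 18172 genes, 0.858% lay lower in every ER rat and 0.842% lower in every EE rat than in these 4 SH rats. The log2 fold change in ERvSH was -0.06 (SE 0.213, adjusted p = 0.936) with 18 libraries and -0.49 (SE 0.0953, unadjusted p = 5.5e-05, adjusted p = 0.472) without SH 1 and SH 3. In EEvSH it was 0.15 (SE 0.213) and -0.28 (SE 0.0953, adjusted p = 0.450) in these settings. In ERvEE it was -0.21 in both (SE 0.213, and 0.0852 without SH 1 and SH 3, adjusted p = 0.629), with ER and EE values overlapping.

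**Figure D3:**
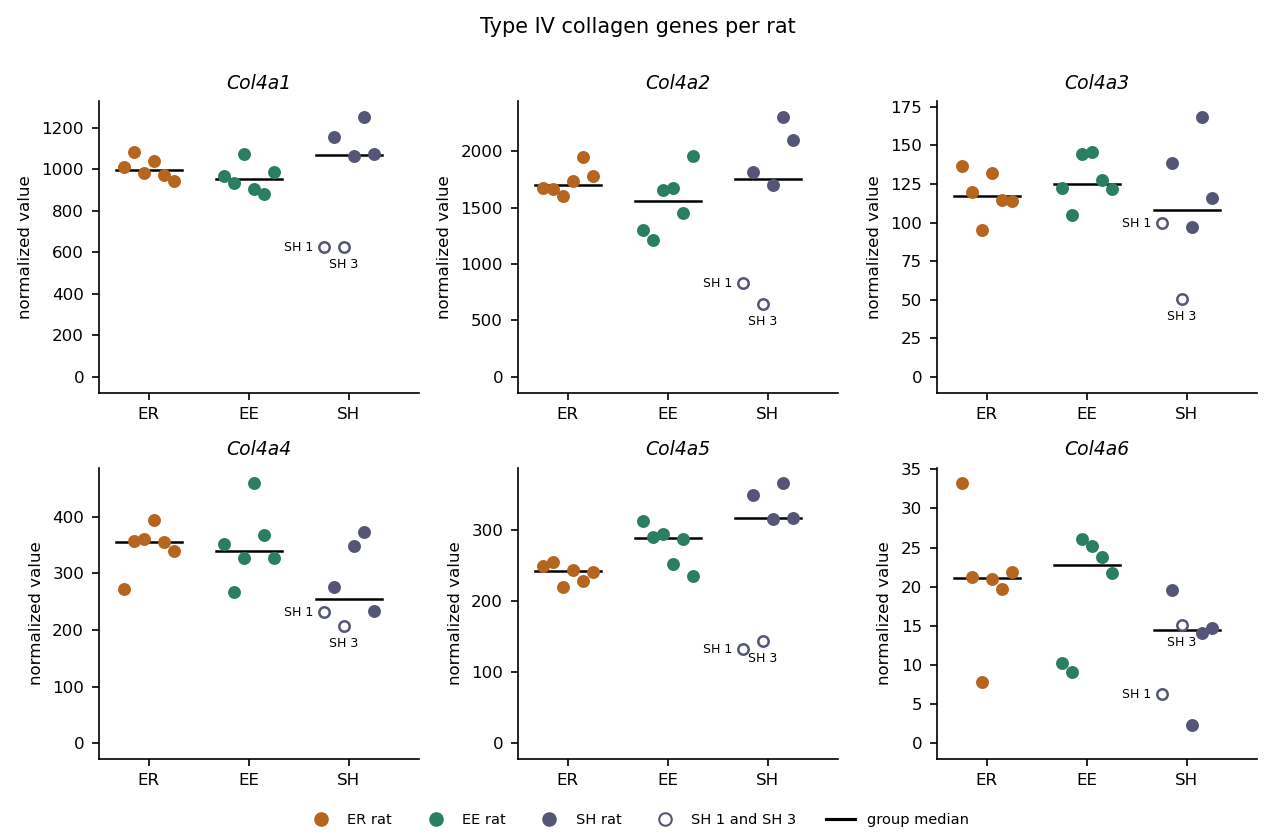
Normalized value of each of the 6 type IV collagen genes (vertical axes, each panel with its own scale) in every rat, with a point per rat, a black line at the group median and open points for SH 1 and SH 3. For Col4a5, the 4 filled SH points (316 to 365) lie above all ER and EE points (220 to 312).

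Of the other 3 type IV genes, Col4a4 was higher in both ER and EE than in SH, with 273, 356 and 394 in ER, 266, 340 and 459 in EE and 207, 255 and 372 in SH. The groups overlapped, and SH 3 was again the lowest rat. Its log2 fold change was 0.34 (SE 0.150) in both ERvSH and EEvSH (adjusted p = 0.567 and 0.749), and 0.19 (SE 0.145) in both without SH 1 and SH 3. Col4a3, its partner chain, had 94.9, 117 and 137 in ER, 105, 125 and 146 in EE and 50.5, 108 and 169 in SH. Col4a6 was low throughout, with medians of 21.1 in ER, 22.8 in EE and 14.5 in SH and a range of 2.36 to 33.2 over all rats. It had the largest fitted log2 fold changes of the type IV genes, 0.86 in ERvSH (SE 0.435, adjusted p = 0.567) and 0.76 in EEvSH (SE 0.435, adjusted p = 0.749), and 0.84 and 0.74 (SE 0.483) without SH 1 and SH 3. SH 4 held its lowest value and SH 1 (6.25) the next lowest, while SH 3 (15.05) was not low.

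Among fibrillar collagens, Col11a1 and Col2a1 varied widely between rats. Type XI collagen copolymerizes with type II in cartilage fibrils, and Col11a1 also occurs in other tissues. Col11a1 had 91.0, 211 and 356 in ER, 146, 356 and 449 in EE and 60.2, 367 and 842 in SH. SH 3 held the lowest and SH 2 the highest value of all rats, and SH 4 (192) was as low as SH 1 (197), so the groups overlapped also without SH 1 and SH 3. The log2 fold change in ERvSH was -0.59 (SE 0.516, adjusted p = 0.683) with 18 libraries and -1.31 (SE 0.413, adjusted p = 0.689) without them.

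Col2a1, the type II chain, had 9.31, 17.5 and 45.6 in ER, 13.8, 36.9 and 62.4 in EE and 5.21, 38.9 and 68.4 in SH. SH 1 (5.21) was the lowest rat and 5 of 6 ER rats lay below the 4 other SH rats (27.2 to 68.4). In ERvSH the log2 fold change was -0.46 (SE 0.555) with 18 libraries and -1.30 (SE 0.448, adjusted p = 0.749) without SH 1 and SH 3. Col11a2, which had the highest mean value of the collagens, had 2897, 3119 and 3582 in ER, 3088, 3279 and 4732 in EE and 2632, 3613 and 4396 in SH. SH 1 and SH 3 were its lowest rats. In ERvSH its log2 fold change was -0.12 (SE 0.124) and -0.30 (SE 0.106, adjusted p = 0.757) without them.

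Type V collagen helps start fibrils, and its 3 genes are measured here. Col5a1 had 788, 914 and 1050 in ER, 600, 807 and 1046 in EE and 363, 945 and 1291 in SH, with SH 3 and SH 1 (473) lowest. Its log2 fold change in EEvSH was 0.06 (SE 0.237) with 18 libraries and -0.39 (SE 0.129, adjusted p = 0.442) without these libraries. Col5a2 had 644 to 738 in ER, 603 to 858 in EE and 650 to 816 in the 4 SH rats, with 277 in SH 3 and 506 in SH 1. Col5a3, in contrast, had its highest values in EE rats: 982, 1282 and 1416 in ER, 976, 1546 and 2154 in EE and 759, 1140 and 1593 in SH, with SH 1 (1242) above 4 other SH rats. In EEvSH the log2 fold change was 0.37 (SE 0.175, adjusted p = 0.749) and 0.27 (SE 0.172) without SH 1 and SH 3.

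The remaining fibrillar genes overlapped between groups. Col27a1, a fibrillar collagen of cartilage, had medians of 1005 in ER, 1055 in EE and 953 in SH, with SH 3 (494) and SH 1 (596) lowest. Col3a1, the type III chain of vessel walls, had 65.9, 106 and 156 in ER, 93.0, 127 and 177 in EE and 83.8, 142 and 167 in SH, with a log2 fold change in ERvSH of -0.34 (SE 0.220) and -0.49 (SE 0.223, adjusted p = 0.769) without SH 1 and SH 3. Col1a1 and Col1a2 encode the partner chains of type I collagen. Col1a1 had a range of 97.8 to 268 over all rats, while Col1a2 did not exceed 5.01 and was listed at 0 in 9 of 18 libraries. The cause of this gap was not tested.

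Among the other collagens, several of the FACIT and anchoring classes moved with SH 1 and SH 3. Col14a1 encodes a collagen on the surface of fibrils that perivascular fibroblasts express. Its values were 18.6, 47.8 and 84.8 in ER, 38.5, 40.2 and 67.1 in EE and 1.07, 79.1 and 128 in SH. SH 3 (1.07) and SH 1 (11.5) were the lowest of the 18 rats, and the other SH rats, at 75.7, 82.5, 121 and 128, lay above every EE rat and above all but 1 ER rat. The log2 fold change was 0.18 (SE 0.750) in ERvSH and 0.28 (SE 0.750) in EEvSH with 18 libraries, and -1.26 (SE 0.327, adjusted p = 0.649) and -1.15 (SE 0.327, adjusted p = 0.414) without SH 1 and SH 3.

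Col12a1, its close relative, had 196, 312 and 381 in ER, 208, 250 and 364 in EE and 152, 355 and 425 in SH, with SH 1 and SH 3 (187) lowest. Its log2 fold change in EEvSH was -0.16 (SE 0.235) and -0.56 (SE 0.168, adjusted p = 0.414) without these libraries. Type IX collagen, a FACIT of type II fibrils, was represented by 3 genes. Col9a2 had 149, 202 and 248 in ER, 194, 250 and 329 in EE and 169, 238 and 348 in SH. Its log2 fold change was -0.34 in ERvEE (SE 0.183, adjusted p = 1.00) and -0.26 in ERvSH (SE 0.183). Without SH 1 and SH 3 it was -0.34 in ERvEE (SE 0.156, adjusted p = 0.629) and -0.47 in ERvSH (SE 0.174). Col9a1 and Col9a3 had medians of 16.8 and 199 in ER, 18.7 and 224 in EE and 20.05 and 192 in SH. Col16a1 (556 to 996 in ER, 610 to 1162 in EE and 662 to 963 in SH) overlapped fully between groups.

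Col7a1, the collagen of anchoring fibrils in skin, had 51.4, 72.7 and 89.97 in ER, 84.6, 86.6 and 99.6 in EE and 35.5, 104 and 125 in SH. SH 3 and SH 1 (60.4) were low, and the other 4 SH rats (99.1 to 125) were above every ER rat and above all but the highest EE rat. In ERvSH the log2 fold change was -0.21 (SE 0.244) with 18 libraries and -0.62 (SE 0.159, adjusted p = 0.649) without them. In ERvEE it was -0.33 in both settings (SE 0.244, and 0.143 without them, adjusted p = 0.629).

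The transmembrane collagen Col13a1 was low, at 8.27, 11.4 and 13.3 in ER, 9.20, 19.9 and 24.9 in EE and 3.22, 18.9 and 36.5 in SH. Every ER rat was below the 4 SH rats other than SH 1 and SH 3 (15.2 to 36.5), and the ER rats varied little. The log2 fold change in ERvSH was -0.56 (SE 0.415) with 18 libraries and -1.10 (SE 0.328, adjusted p = 0.689) without these libraries. Non-overlap of this kind was seen in ERvSH for 3 of 42 collagens (Col4a5, Col7a1 and Col13a1, where 0.858% of all genes were lower without overlap) and in EEvSH for 2 (Col4a5 and Col14a1, 0.842%). SH 1 and SH 3 were low in most collagens but differed little from the other SH rats in the median gene. Leaving them out thus favours non-overlap of collagens by construction, and the shares over all genes do not account for this. With all 18 libraries no collagen was free of overlap in any contrast, against 0.292% of all genes in ERvSH, 0.171% in EEvSH and 0.215% in ERvEE.

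**Figure D4:**
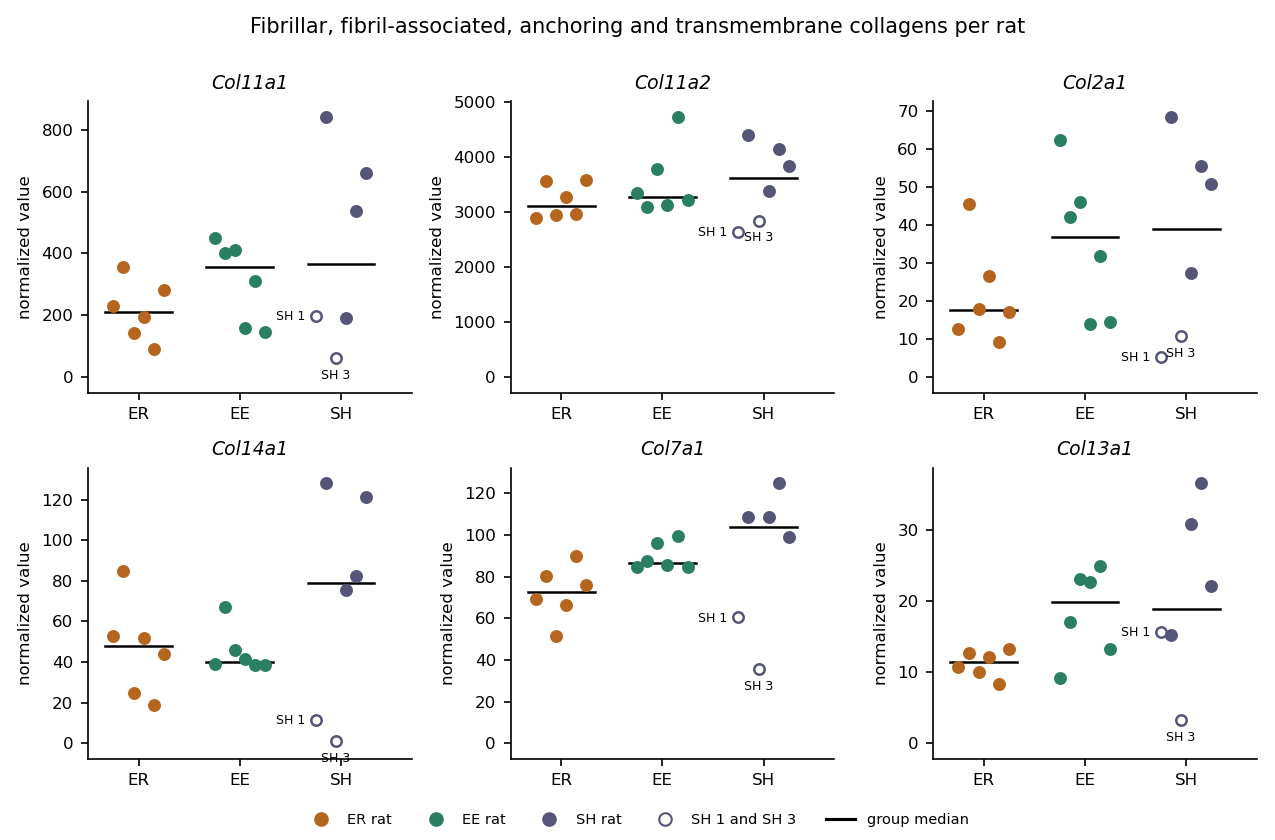
Normalized value of 6 collagen genes outside type IV (vertical axes, each panel with its own scale) in every rat, with a point per rat, a black line at the group median and open points for SH 1 and SH 3. For Col14a1, SH 3 (1.07) and SH 1 (11.5) lie below all other rats and the 4 filled SH points (75.7 to 128) above all EE points.

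Col15a1 was lower in both ER and EE than in SH whether or not SH 1 and SH 3 were used. This multiplexin of vascular basement membrane zones had 6.70, 17.6 and 32.9 in ER, 11.3, 16.5 and 26.1 in EE and 22.6, 28.7 and 39.0 in SH. SH 3 (22.6) and SH 1 (27.1) lay just below and within the range of the other SH rats (23.6 to 39.0), and the groups overlapped. The log2 fold change of Col15a1 was -0.88 in ERvSH (SE 0.367, adjusted p = 0.567) and -0.82 in EEvSH (SE 0.367, adjusted p = 0.749), and -0.996 and -0.939 (SE 0.418 in both) without these libraries. Col18a1, the other multiplexin and the source of endostatin, had 191 to 383 in ER, 265 to 478 in EE and 219 to 406 in SH.

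Col25a1 and Col19a1, which neurons express, were low in SH 3 alone. Col25a1 had 260, 394 and 448 in ER, 228, 357 and 462 in EE and 30.1, 275 and 388 in SH. SH 3 had 30.1, and the next lowest of all rats was an EE rat with 228. Col19a1, singled out after its values were seen, had 205, 255 and 440 in ER, 160, 216 and 269 in EE and 7.52, 202 and 297 in SH, where SH 3 had 7.52 and SH 1 had 226. Its log2 fold change in ERvSH was 1.08 (SE 0.588, adjusted p = 0.567) with 18 libraries and 0.31 (SE 0.202) without SH 1 and SH 3. Summed markers of excitatory neurons (103250) and of inhibitory neurons (23047) were not low in SH 3. The other 4 SH rats had 86073 to 100508 and 21051 to 23057. These sums cover broad classes of neurons. Whether the number or type of neurons plays a part in the low Col25a1 and Col19a1 values was not tested.

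Type VI collagen forms beaded filaments around cells, and its genes varied widely. Col6a2 had 364, 577 and 828 in ER, 378, 430 and 723 in EE and 358, 588 and 965 in SH, and Col6a1 had 263, 342 and 409 in ER, 238, 325 and 469 in EE and 259, 291 and 405 in SH. SH 1 was low in Col6a2 but SH 3 (632) was not. Col6a4, a low gene listed at 0 in 4 libraries, had 0, 5.98 and 9.31 in ER, 0, 3.98 and 11.3 in EE and 5.89, 12.4 and 20.8 in SH. In EEvSH the log2 fold change was -1.96 (SE 0.729, adjusted p = 0.749) and -1.72 (SE 0.827) without SH 1 and SH 3, which were not low in this gene. The size depended on the scale, at -3.57 with a pseudocount of 0.1, -0.98 with a pseudocount of 5, -1.33 with edgeR and -1.35 with DESeq2.

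Collagens varied more between rats of a group than other genes did. Over the 37 collagens with a mean of at least 10, the median of the SD within groups on the log2 scale was 0.44, against 0.25 over 15211 genes with such a mean, without matching on level. With SH 1 and SH 3 left out it was 0.35, against 0.18. By class it was 0.41 for fibrillar, 0.38 for type IV and 0.64 for other collagens, and 0.34, 0.21 and 0.41 without these libraries. The type IV genes thus came nearest to the typical gene once SH 1 and SH 3 were set aside.

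Collagen genes were compared across rats in 11 pairs, 10 of them chains of one collagen type and the other Col1a1 with Col3a1, as deviations from group means on the log2 scale. Pearson's r passed Benjamini-Hochberg adjustment over the 11 pairs in 4 of them, by permutation tests with 100000 draws. Pairs of collagens of unrelated types were not compared, so no background share stands beside this count. SH 3 was below the mean of the other 4 SH rats in 37 of 42 collagens and SH 1 in 33 (53.9% and 52.5% of all genes tested). Whether these relations are particular to chains of one type was therefore not tested. For Col4a1 and Col4a2, whose start region is printed above, r was 0.90 (Spearman's rho 0.70, adjusted p = 1.1e-04 and 0.020). The unadjusted permutation p of its r, 1e-05, was the smallest that the draws can give. For Col5a1 and Col5a2, r was 0.78 (rho 0.54, adjusted p = 0.0010 and 0.074). For Col11a1 and Col11a2, on separate chromosomes, r was 0.68 (rho 0.66, adjusted p = 0.0070 and 0.022), and for Col9a1 and Col9a3, r was 0.61 (rho 0.53, adjusted p = 0.018 and 0.074). Without the 2 rats farthest from the median on the x axis, and with the deviations left as they were, r was 0.73 for Col4a1 and Col4a2 and 0.51 for Col5a1 and Col5a2 (SH 1 and SH 3 in both), 0.56 for Col11a1 and Col11a2 (SH 3 and SH 2) and 0.46 for Col9a1 and Col9a3 (ER 3 and SH 3). All these points share a size factor per library and, in the SH rats, a group mean that SH 1 and SH 3 pull down. The draws shuffled deviations over all 18 rats and not within groups. Spread differed between groups, as for Col4a1, whose values had an SD of 50.3 in ER, 69.5 in EE and 272 in SH. The permutation p-values do not allow for this.

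Without SH 1 and SH 3, with group means taken anew, r was 0.29 for Col4a1 and Col4a2 (rho 0.25, adjusted p = 0.439 and 0.468, permutation test) and 0.05 for Col5a1 and Col5a2 (rho -0.02). These 2 relations thus rested on SH 1 and SH 3. For Col11a1 and Col11a2, r was 0.54 (rho 0.56, adjusted p = 0.173 and 0.256), and for Col9a1 and Col9a3 it was 0.49 (rho 0.48, adjusted p = 0.194 and 0.256). No pair passed without these libraries. With 18 libraries, Col4a3 and Col4a4 had r of 0.52 (rho 0.34, adjusted p = 0.052 and 0.224), and Col4a5 and Col4a6 had 0.08 (rho 0.13, adjusted p = 0.848 and 0.670).

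**Figure D5:**
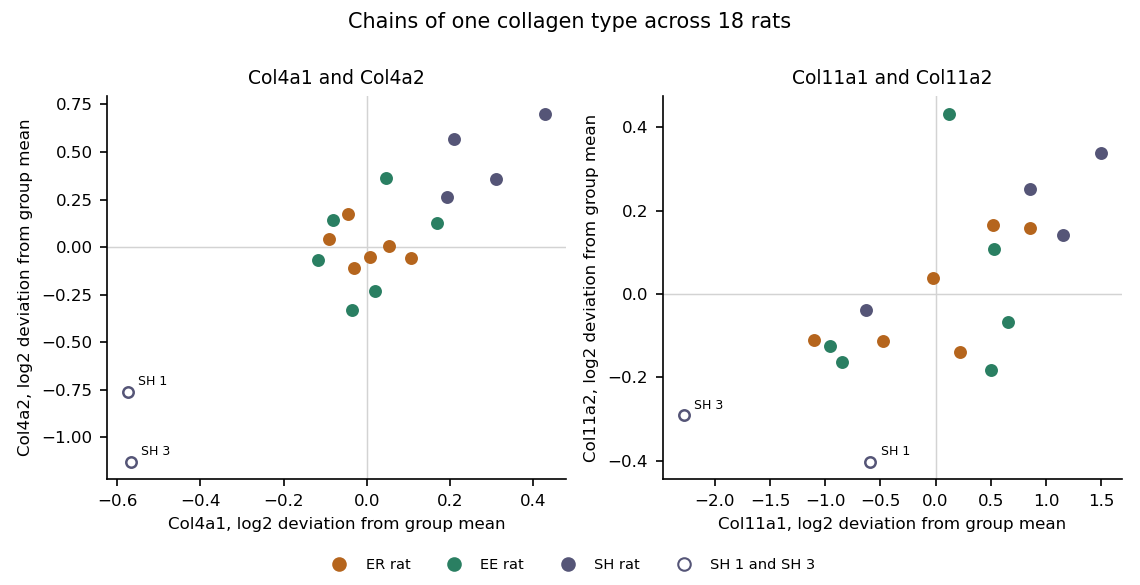
Deviation from the group mean on the log2 scale of Col4a1 against Col4a2 (left) and of Col11a1 against Col11a2 (right), with a point for each of 18 rats coloured by group and open points for SH 1 and SH 3. Pearson's r is 0.90 on the left and 0.68 on the right, and 0.29 and 0.54 without SH 1 and SH 3.

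Genes that build, modify or bind collagen were examined in 6 lists, and 0 of their 84 tested members passed an adjusted p under 0.05 in limma in any contrast. At an unadjusted p under 0.05, the share of all genes that were higher or lower was 3.35% or 2.53% for EEvSH, 4.57% or 3.32% for ERvSH, and 1.38% or 2.28% for ERvEE. Of 21 genes of collagen synthesis and folding, 2 were higher and 1 lower in EE than in SH at an unadjusted p under 0.05, 3 were lower in ER than in SH, and 2 were lower in ER than in EE. P3h3, a prolyl 3-hydroxylase family protein needed for lysine hydroxylation of collagen, had 1255, 1405 and 1488 in ER, 1224, 1313 and 1480 in EE and 1394, 1640 and 1912 in SH. EE and SH overlapped only through EE 3 (1480), and the log2 fold change in EEvSH was -0.30 (SE 0.0889, adjusted p = 0.749). P3h4, a member of the same family, had 216, 260 and 287 in ER and 275, 290 and 387 in SH (log2 fold change -0.27 in ERvSH, SE 0.105, adjusted p = 0.567). The summed value of the list was 31771 in SH 1 and 32113 in SH 3, against 27824 to 29518 in the other SH rats, the opposite side from the collagens themselves. Other lists differed in this. Summed maturation and crosslinking genes were low in SH 1 and SH 3, at 2748 and 2606, against 2967 to 3401 in the other SH rats. Collagen-cleaving enzymes and their inhibitors were low as well, at 9712 and 8942, against 11411 to 12942. Fibril-associated proteins (18864 and 18940) lay within the 15218 to 20491.5 of the other SH rats. Collagen receptors had 9184 and 9076, against 9141 to 10851.

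Loxl3, a lysyl oxidase that crosslinks collagen, had 49.6, 63.7 and 83.7 in ER, 76.2, 91.9 and 117 in EE and 66.6, 85.9 and 96.6 in SH. The ER median was the lowest, with a log2 fold change of -0.50 in ERvEE (SE 0.162, unadjusted p = 0.0063, adjusted p = 1.00). Of 12 maturation and crosslinking genes, it was the 1 that was lower in ERvEE at an unadjusted p under 0.05, 1 was lower in ERvSH and 0 passed that level in EEvSH. Lox, another lysyl oxidase, had 12.1, 23.3 and 49.1 in EE and 21.3, 38.9 and 49.5 in SH (log2 fold change -0.65, SE 0.338, adjusted p = 0.749). Of 13 fibril-associated proteins, 2 were lower in ERvSH at that level (3.32% of all genes), Tgfbi, an integrin-binding matrix protein (log2 fold change -0.64, SE 0.245), and Sparc, which binds collagen (-0.28, SE 0.110). In ERvEE 2 were lower and in EEvSH 1 was higher. With SH 1 and SH 3 left out, 0 passed that level in ERvSH.

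Of 12 collagen receptors, 1 was higher in EEvSH (3.35% of all genes) and 1 lower in ERvEE (2.28%) at an unadjusted p under 0.05. Adgrg6, a receptor for type IV collagen, had 166, 255 and 342 in EE and 106, 205 and 262 in SH, with a log2 fold change of 0.44 in EEvSH (SE 0.204, adjusted p = 0.749) and 0.29 (SE 0.185) without SH 1 and SH 3. Adgrg1, a receptor for type III collagen, had 4430, 5163 and 5661 in ER and 4950, 6239 and 6759 in EE (log2 fold change -0.23, SE 0.0875, adjusted p = 1.00). Of 11 collagen-cleaving enzymes and their inhibitors, 2 were higher in ERvEE at that level and 1 was lower in EEvSH. Reck, a membrane-bound inhibitor of matrix metalloproteinases, had 852, 1004 and 1050 in ER, 739, 805 and 829 in EE and 585, 997 and 1210 in SH, where SH 3 (585) and SH 1 (700) were lowest. ER and EE did not overlap (0.0936% of all genes were higher without overlap in ERvEE). The log2 fold change of Reck was 0.31 in ERvEE (SE 0.130, adjusted p = 1.00). In EEvSH it was -0.17 (SE 0.130, adjusted p = 0.749) with 18 libraries and -0.41 (SE 0.0713, unadjusted p = 1.3e-05, adjusted p = 0.114) without SH 1 and SH 3, and this was the smallest adjusted p of all genes in that setting. Mmp9, a gelatinase, had 14.3, 24.6 and 47.5 in ER and 2.00, 9.42 and 31.4 in EE. SH 1 (57.3) and SH 3 (53.7) were its highest rats. In EEvSH its log2 fold change was -1.38 (SE 0.594, adjusted p = 0.749) with 18 libraries and -0.85 (SE 0.620) without SH 1 and SH 3.

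Of 15 partners of collagen in basement membranes, 2 were higher in EEvSH (3.35% of all genes) and 1 lower in ERvSH (3.32%) at an unadjusted p under 0.05. Without SH 1 and SH 3, 1 was higher and 3 lower in EEvSH (3.84% and 4.52% of all genes). Nid1, which links type IV collagen to laminin, had 201, 275 and 303 in ER, 201, 311 and 449 in EE and 192, 226 and 286 in SH, with a log2 fold change of 0.43 in EEvSH (SE 0.168, adjusted p = 0.749). Fbln1, a fibulin, had 273, 300 and 375 in ER and 302, 388 and 457 in SH (log2 fold change -0.28 in ERvSH, SE 0.129, adjusted p = 0.567). SH 3 (457) and SH 1 (426) were its highest SH rats, and without them the log2 fold change was -0.17 (SE 0.131). The summed value of these partners was 7363 in SH 1 and 6506 in SH 3, against 8816 to 10048 in the other SH rats. Their median log2 fold change in EEvSH was 0.15 with 18 libraries and -0.08 without SH 1 and SH 3, as for the type IV genes.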

How the data were processed

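RNA of BLA micropunches from 18 rats was sequenced after polyA selection, 1 library per rat. Per the labels and the study's methods, the authors aligned reads with HISAT2, counted them per gene and normalized them with DESeq2. The deposited values are a signal, reads per gene divided by 1 size factor per library. For versions, genome build, annotation, counting tool and strand setting: not given in the sources used here. The value of 1 read, found in each library from its low values, gave whole reads for 100% of values up to 1000 reads (tolerance 0.01), and 0 columns were left unused.

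Genes with a mean above 1 were fitted as log2(value + 1) with limma 3.58.1 (R 4.3.3), 1 model of 3 groups with a trend and all libraries. A fold change is thus on the log2(value + 1) scale, which understates ratios of low values, although values of 0 in some rats can enlarge a mean of logs, as for Col6a4. P-values were adjusted by Benjamini-Hochberg over 18172 genes, with a threshold of 0.05, and measure the spread between rats. EdgeR 4.0.16, which made 0 calls in all 3 contrasts, DESeq2 1.42.0 and limma-voom were run on the recovered reads. Other alternatives changed the scaling, pseudocount (0.1 and 5), filter and libraries. The edgeR fit without SH 1 and SH 3 was added after seeing the data. The fit was tested on simulated data.

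Described genes were those with an unadjusted p under 0.05 in any contrast, the 4 highest fibrillar and other collagens, all type IV chains, those at the limit of 1, and 2 genes of smallest p per list. Some other collagens are described beside their partners. The collagen genes, classes and lists were chosen with earlier results of these data known. Correlations used 100000 permutations. RefSeq promoters (GRCr8) were matched by symbol.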

Additional observations from a re-analysis of the deposited data

Results flagged for a closer look

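Each of the 126 groups of 6 rats (42 genes in 3 groups) was examined for a single rat far from the others, by the gap to its nearest neighbour relative to the range of the group. Chance alone marks about 1 in 20 groups in this way, and 6 were marked. Col1a1, the main chain of type I collagen, was high in EE 3 (243), with 112 to 151 in the other EE rats. Col8a2, a short-chain collagen, was high in the same rat (36.1), with 10.1 to 18.4 in the others. Its partner Col8a1 was high in EE 6 (304, against 45.3 to 135). Col14a1 was high in EE 2 (67.1, against 38.5 to 46.1). Col1a2 was high in ER 2 (3.18, against 0 to 1.10), a value that stands for 3 reads. Col25a1 was low in SH 3 (30.1, against 264 to 388). Only this last value lay in a library that stood apart over all genes.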

How the results depend on the processing

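The count of 0 collagens at an adjusted p under 0.05 held under every alternative run, and the smallest adjusted p of a collagen ranged from 0.410 to 1.00 in EEvSH, 0.346 to 0.877 in ERvSH and 0.425 to 1.00 in ERvEE. Leaving out SH 1 and SH 3, the type IV median was -0.12 in EEvSH and -0.14 in ERvSH, with edgeR without them -0.14 and -0.16, and with limma-voom -0.0957 and -0.12. The median of other collagens in EEvSH was -0.29 without them. Col4a1 in EEvSH was -0.0165 with edgeR, -0.0138 with DESeq2, -0.19 with limma-voom, -0.24 without SH 1 and SH 3 and -0.25 with edgeR without them. For Col4a2 these values were -0.0284, -0.0249, -0.36, -0.37 and -0.36, and for Col5a1 -0.0554, -0.0520, -0.40, -0.39 and -0.38. Col14a1 had -0.64, -0.63, -0.92, -1.15 and -1.18 in EEvSH and -0.60, -0.61, -1.03, -1.26 and -1.15 in ERvSH, where a pseudocount of 5 gave -0.0400. Col4a5 in EEvSH was -0.18 with limma-voom, -0.28 without SH 1 and SH 3 and -0.28 with edgeR without them. The causes were not tested beyond leaving out libraries. Leaving out each rat in turn, the EEvSH log2 fold change ranged from -0.0737 to 0.13 for Col4a1, -0.12 to 0.24 for Col4a2, -0.15 to 0.21 for Col5a1, -0.0325 to 0.26 for Col4a5 and -0.55 to 0.64 for Col14a1, each being negative without SH 1 or without SH 3 (Col5a1 also without EE 6). In ERvSH the range was -0.65 to 0.54 for Col14a1 (negative without SH 1, SH 3 or ER 2) and -0.24 to 0.0482 for Col4a5 (positive without SH 2, SH 4, SH 5 or SH 6). The class medians ranged from -0.04 to 0.32 (fibrillar), 0.03 to 0.33 (type IV) and -0.12 to 0.17 (other) in EEvSH, -0.03 to 0.21, 0.03 to 0.37 and -0.15 to 0.13 in ERvSH, and -0.17 to -0.04, -0.08 to 0.07 and -0.13 to 0.03 in ERvEE. In EEvSH the median was negative without SH 3 (fibrillar and other) or SH 1 (fibrillar), and in ERvSH without SH 3 (fibrillar and other) or SH 1, ER 2, ER 4 or ER 5 (other). In ERvEE the type IV median was negative without EE 1 or EE 2, and that of other collagens positive without EE 2, EE 3, EE 5 or ER 5. At an unadjusted p under 0.05, ERvSH held 7 collagens without SH 3 (5.29% of all genes) and 0 without SH 6 (13.0%), against 2 with 18 libraries (7.89%). Over all genes, DESeq2 had 1 adjusted call in EEvSH, 2 in ERvSH and 2 in ERvEE, none a collagen. With SH 1 and SH 3 left out, r was 0.29 for Col4a1 and Col4a2, 0.0502 for Col5a1 and Col5a2, 0.49 for Col9a1 and Col9a3, 0.54 for Col11a1 and Col11a2 and -0.22 for Col8a1 and Col8a2, whose r was -0.0067 with a pseudocount of 5. The replicate numbers of the labels did not pair rats across groups: of 18 same-numbered pairs, 1 had a correlation of deviations over 0.1, and 4 of 18 libraries correlated best with their own number. With the number as a replicate block, 0 collagens passed in each contrast, with smallest adjusted p of 0.762, 0.606 and 1.00 in EEvSH, ERvSH and ERvEE. The other 1114 values under alternatives kept their direction and side of the threshold or moved within the spread between rats. With 6 rats per group and this spread, small differences in single collagens were not detectable, and the lowest genes rest on a few reads.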
